A study of Mus musculus with 3 samples.

Results

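The genes described here are 7 genes of the MHC class II antigen presentation pathway, picked by symbol from the 32285 genes of the matrices: H2-Aa, H2-Ab1, H2-Eb1, H2-DMa, H2-DMb1, Cd74 and Ciita. All 7 were found in each matrix. The data are single-cell RNA-seq counts of live CD45+ leukocytes sorted from orthotopic 4T1-luc mammary tumors, a model of metastatic triple-negative breast cancer, grown in the 4th mammary fat pad of female BALB/c mice 6 to 8 weeks old. The vehicle group carried p38WT tumors and received DPBS. The p38i group carried the same p38WT tumors and received LY2228820 (ralimetinib, an inhibitor of the p38 MAP kinases) by gavage at 30 mg/kg each day. Treatment ran for 10 days from day 4. The p38KO group carried tumors of p38a-KO-H9, a single CRISPR clone of 4T1-luc lacking p38α, in hosts whose own p38 genes were intact. The treatment label of p38KO is empty, so p38KO differs from vehicle in the clone and possibly in the gavage, and these cannot be told apart. Tumors were taken on day 14, those of 3 mice were pooled, and each group is 1 library. No difference below therefore has a replicate check, no p-value is given, and all intervals are exact 95% intervals that cover counting error only.

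MHC class II molecules are heterodimers of an α and a β chain that show peptides from ingested proteins to CD4+ T cells. The invariant chain, encoded by Cd74, fills the groove of new dimers until it is degraded in endosomes, and the H2-DM heterodimer then swaps its last fragment for peptide. Transcription of the listed genes other than Ciita depends on CIITA, the coactivator that Ciita encodes. Interferon-γ induces CIITA in macrophages, and it is switched on by other means in dendritic cells (DC) and B cells. CIITA joins factors already bound to conserved X and Y boxes before the starts of the genes that depend on it.

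The X and Y boxes are shown because CIITA acts through them on the listed genes other than Ciita. The RefSeq promoter table (build GRCm38.p6, the C57BL/6J allele, 250 bases before to 50 bases after each start) held 4 of the 7 members, H2-Aa, H2-Eb1, H2-DMa and H2-DMb1. Both stretches below run from 120 to 41 bases before the start, lie outside annotated exons on chromosome 17, and carry in capitals any match to CTAGNAAC (the core of an X box) or GATTGG (the inverted CCAAT of a Y box). These letters were chosen after the sequences had been seen.
H2-Eb1, chr17:34305747-34305826, plus strand: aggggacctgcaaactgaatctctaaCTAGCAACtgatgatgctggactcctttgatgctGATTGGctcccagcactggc
H2-Aa, chr17:34287864-34287943, minus strand: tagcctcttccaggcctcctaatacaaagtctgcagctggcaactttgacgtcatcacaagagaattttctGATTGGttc
H2-Eb1 held both letter sets, the first starting 94 and the second 60 bases before the start, and H2-Aa held only GATTGG, 49 bases before its start. A further GATTGG of H2-Eb1 lay on the other strand, 35 to 30 bases before the start and outside the printed stretch. H2-DMb1 held both as well, at 97 and 62 bases, but is not printed because the same stretch overlaps an annotated exon. Of the H2-DMa starts, one held neither and the other only GATTGG, 199 bases away. Searched on both strands of the 250 upstream bases, CTAGNAAC occurred in 3.06% of 32851 promoters, GATTGG in 14.6% and both in 0.405%. The match to letters is a description and was not tested for binding. A missing match to these letters does not show that a box is absent.

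After removal of cells with fewer than 1500 UMIs (counted transcripts), fewer than 300 genes or more than 20% mitochondrial counts, 3820 of 4588 vehicle, 4793 of 6343 p38i and 3859 of 5212 p38KO barcodes were kept, with 20795195 to 24374173 UMIs per library, medians of 3038 to 3317 UMIs per cell, and 4 or 5 kept barcodes shared between any pair of libraries. The median mitochondrial share was 0.671%, 0.968% and 2.10% in vehicle, p38i and p38KO, and its part in the results was not tested. Cells were assigned by raw counts of a few genes: C1qa for macrophages (149, 175 and 523 cells in vehicle, p38i and p38KO), Ly6c2 and Fn1 for monocytes (411, 708 and 338), Flt3 for DC (35, 77 and 73), Cd79a for B cells (33, 28 and 8), Csf3r and Cxcr2 for neutrophils (1643, 1961 and 1454) and Cd3e for T cells (508, 628 and 436), the last as a background for genes that mouse T cells do not normally express. Markers other than these assigning genes were highest in their own gate in every library for all lists except DC, where 7, 8 and 8 of 10 were. Of these markers, Cd3d and Cd3g of the T list were excluded from the B and myeloid gates, and Siglech of the DC list from the monocyte gate. For these genes the result was in part fixed by the gating. Between 25.4% and 27.3% of kept cells fell in no gate. Levels are given as CPM, the UMIs of a gene per 1000000 UMIs of the pooled gate, one UMI standing for one tagged 3' transcript end, so they are not scaled by gene length. BALB/c mice carry another class II haplotype than the mm10 reference, and how this affected mapping was not tested.

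Class II transcripts were concentrated in macrophages, DC and B cells in all 3 libraries. The 7 genes together reached 27128 CPM in vehicle macrophages, 29188 in p38i macrophages and 39270.3 in p38KO macrophages. In DC the sum was 32013, 25018 and 31821 CPM in the same order, and in B cells 24474, 22567 and 25807 CPM. B cells were the lowest of these 3 gates in each library, while macrophages were above DC in p38i and p38KO and below them in vehicle. The ranges of macrophages and DC overlapped across libraries, as did those of DC and B cells. Monocytes came next at 10890.5, 9654 and 11251 CPM, below each of those gates in every library. Neutrophils held 743, 1272 and 1041 CPM and T cells 558, 584 and 267 CPM, and the neutrophil level is read below only beside this background.

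Ciita, the transactivator, was the least abundant member in each gate and library except the B cells of p38i and p38KO, where H2-DMb1 was lower, and its order over the gates was not that of the sum. It stood at 212, 199 and 271 CPM in B cells and at 216, 183 and 191 CPM in DC, with overlapping ranges. Macrophages held 87.4, 103 and 113 CPM and monocytes 70.4, 67.5 and 80.3 CPM. The pooled CPM of Ciita was thus higher in DC than in macrophages in each library, with counting intervals that did not overlap. H2-Ab1 was of similar height in the same gates (3929.8, 4368 and 5800.2 CPM in macrophages against 4936, 3984 and 5167 CPM in DC). Single cells carried weight, 1 DC holding 18 of 106, 17 of 140 and 13 of 188 Ciita counts. Thinned to 1500 UMIs per cell, Ciita was found in 9 of 35, 16 of 77 and 8 of 73 DC. In macrophages it was found in 17 of 149, 19 of 175 and 69 of 523 cells. This share was higher in DC in vehicle and p38i but lower in p38KO, with exact intervals that overlapped in each library. In neutrophils (3.88, 7.59 and 4.28 CPM) and T cells (5.09, 6.11 and 2.57 CPM) Ciita rested on 6 to 43 counts per library.

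**Figure D1:**
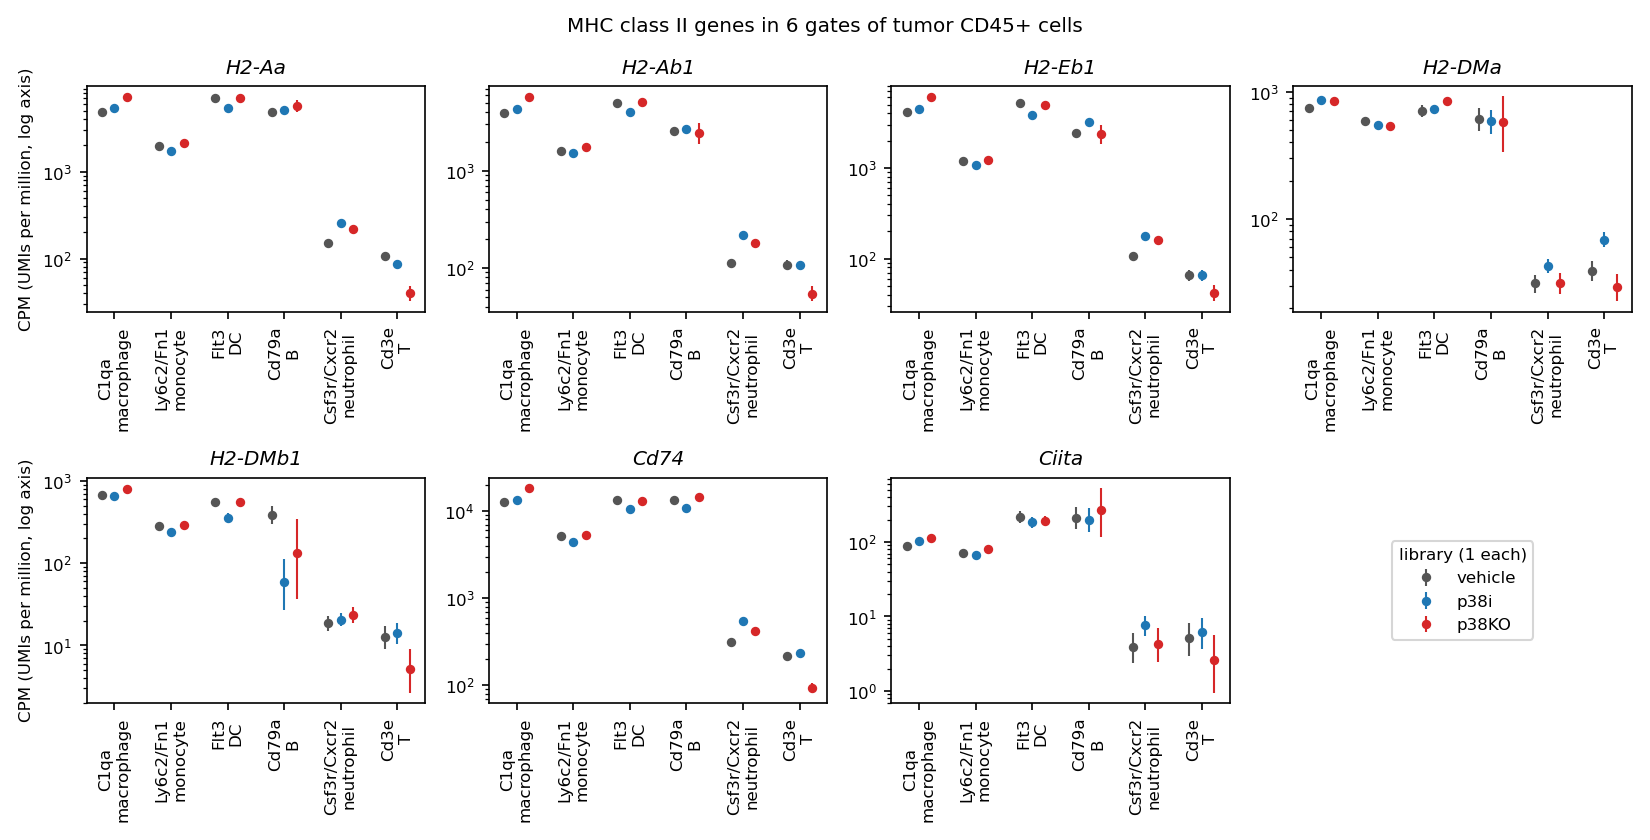
CPM of each class II gene (log axis) in the 6 gates, with 1 point per library and bars for the exact 95% Poisson interval (counting error only). Macrophages, DC and B cells lie together at the top for most genes, monocytes below them and neutrophils and T cells near the bottom, while H2-DMb1 in B cells splits between 386 CPM in vehicle and 59.8 CPM in p38i.

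Macrophages of p38KO tumors held more transcripts of the class II chains and of the invariant chain than vehicle macrophages. H2-Aa, the α chain of the I-A molecule, was at 4908 CPM in vehicle and 7202 CPM in p38KO, a log2 ratio of 0.55 (0.53 to 0.58). Its partner H2-Ab1 went from 3929.8 to 5800.2 CPM (log2 ratio 0.56, 0.53 to 0.59), and H2-Eb1, the β chain of I-E, from 4185 to 6114 CPM (0.55, 0.52 to 0.58). Cd74 stood at 12612 CPM in vehicle and 18388 CPM in p38KO (0.54, 0.53 to 0.56). These 4 log2 ratios were nearly equal, and each lay past 0.5 (with at least 20 counts over both libraries), the limit used for a call. Of all genes tested in this gate, 17.1% were past the limit upward and 6.46% downward, so a call was not rare, and the median log2 ratio of all genes was 0.061 against 0.54 for the 7 members.

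The peptide editor and the transactivator differed less. H2-DMa, the α chain of H2-DM, was at 739 CPM in vehicle and 846 CPM in p38KO (log2 ratio 0.19, 0.12 to 0.27). H2-DMb1, its β chain, was at 667 and 808 CPM (0.28, 0.20 to 0.35). Ciita stood at 87.4 and 113 CPM (0.37, 0.17 to 0.58), from 244 and 904 counts. In all, 4 of 7 members were past the limit upward and 0 downward; the intervals of H2-DMa and H2-DMb1 ended below those of the 3 chains and Cd74, whereas that of Ciita overlapped them. The log2 ratio of the sum was 0.53, and it was under the limit at 0.40 without cells holding an Mki67 or Top2a transcript, at 0.43 when cells meeting the rules of several gates were left in, and at 0.47 under median-ratio scaling.

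The per-cell values lay higher over most of the range. The class II share of a macrophage's UMIs had a median of 2.51% in vehicle, 3.09% in p38i and 3.99% in p38KO, and the 10th percentile was 0.289%, 0.464% and 0.678%. Macrophages with at least 1% made up 74.5%, 81.7% and 87.0% of the gate. At 1500 UMIs per cell, 96.0% (91.4 to 98.5), 97.7% (94.3 to 99.4) and 97.7% (96.0 to 98.8, all Clopper-Pearson) had a transcript of any member, shares too near 100% to show a difference. For single members the share was higher in p38KO: 81.2% (74.0 to 87.1) of vehicle and 90.4% (87.6 to 92.8) of p38KO macrophages had an H2-Eb1 transcript at that depth, and 77.2% (69.6 to 83.7) and 87.4% (84.2 to 90.1) had at least 2 of H2-Aa. With at least 1 transcript the intervals overlapped for every member but H2-Eb1, as for H2-Aa (76.2 to 88.8 and 88.4 to 93.5). With at least 2 those of H2-Eb1 overlapped (67.4 to 81.9 and 81.5 to 87.9), and those of H2-Ab1 did not (65.3 to 80.1 and 82.6 to 88.7). A gene with more transcripts per cell is also found in more cells at a fixed depth, so these shares do not tell amount and number of cells apart. The summed macrophage markers of the gate (C1qb, C1qc, Apoe, Ms4a7, Mrc1, Trem2 and Pf4) moved the same way, at 18900.3, 22788 and 30550.2 CPM, with neutrophil markers at 2183, 1531 and 1564 CPM, and the part of this in the class II values was not tested.

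Macrophages of p38i tumors were close to vehicle. H2-Aa was at 5412 CPM (log2 ratio 0.14, 0.11 to 0.17), H2-Ab1 at 4368 (0.15, 0.12 to 0.19), H2-Eb1 at 4486 (0.10, 0.064 to 0.14) and Cd74 at 13302 CPM (0.077, 0.056 to 0.098). H2-DMa was at 860.0 CPM (0.22, 0.13 to 0.30), as high as in p38KO, and H2-DMb1 at 656 CPM (-0.022, -0.12 to 0.070). None of the 7 was past the limit in either direction, where 7.95% of all genes were past it upward and 9.66% downward. Without cells holding Mki67 or Top2a the ratio of the sum went from 0.11 to -0.0041. Both comparisons share the vehicle library.

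**Figure D2:**
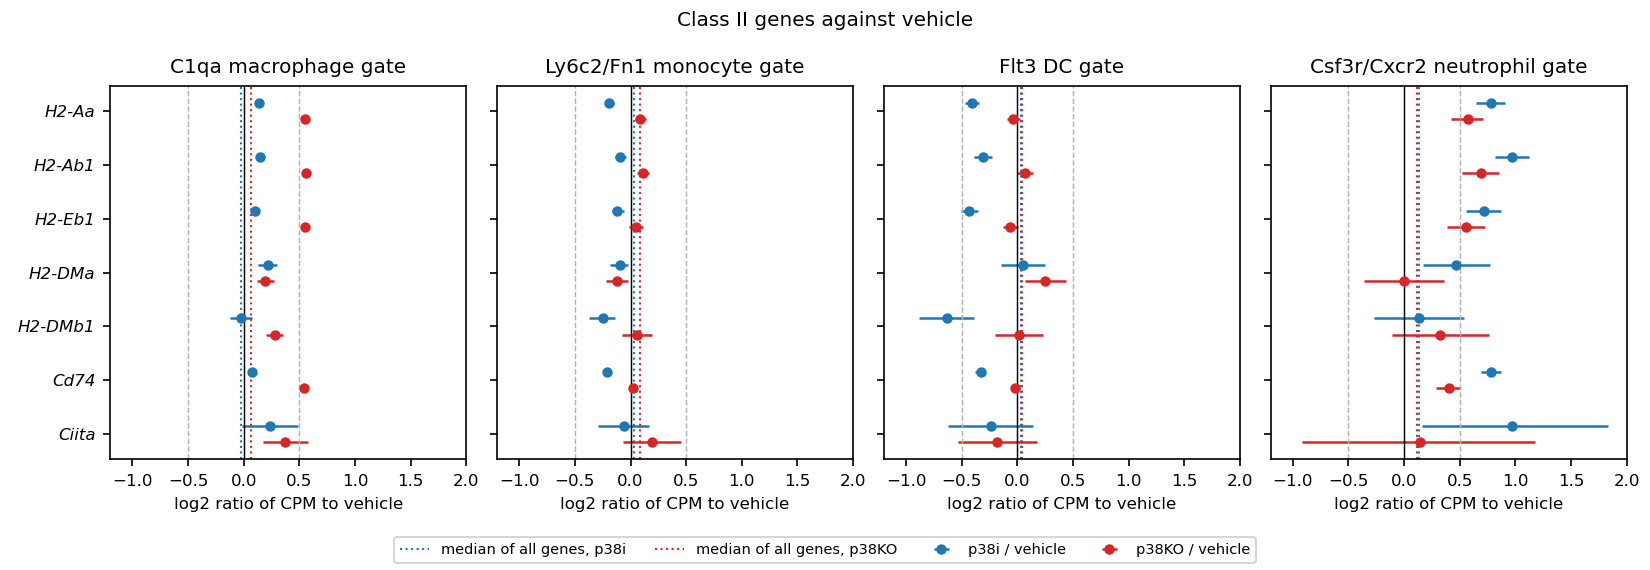
log2 ratio of CPM to vehicle for each class II gene in 4 gates (points; bars are exact 95% intervals for counting error), with the limit of 0.5 dashed and the median of all genes dotted. In macrophages the p38KO points of the chains and Cd74 lie together at 0.54 to 0.56 and the p38i points between -0.022 and 0.24, while in DC 6 of the 7 p38i points lie below 0.

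Monocytes showed no member past the limit in either comparison. In p38i, H2-Aa was at 1738 CPM against 1980.3 CPM in vehicle (log2 ratio -0.19, -0.23 to -0.15), Cd74 at 4464 against 5179 CPM (-0.21, -0.24 to -0.19) and H2-DMb1 at 237 against 282 CPM (-0.25, -0.37 to -0.14). In p38KO, H2-Aa was at 2104 CPM (0.087, 0.038 to 0.14) and H2-DMa at 538 against 585 CPM (-0.12, -0.22 to -0.026). The count was 0 of 7 in both directions in each comparison, where 8.82% of genes were past the limit upward and 5.69% downward in p38i, and 15.1% and 4.75% in p38KO. The gate held 5769.5, 8669.5 and 3693 CPM of neutrophil markers in vehicle, p38i and p38KO. Macrophage markers stood at 4585, 3564 and 4798 CPM, and the part of either in these ratios was not tested.

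The monocyte gate held cells over the whole range of class II content. The median share of UMIs was 0.239%, 0.168% and 0.160% in vehicle, p38i and p38KO, but the 90th percentile was 3.49%, 3.22% and 3.67%, and 28.7%, 28.4% and 30.5% of the cells had at least 1%, a share that macrophages mostly exceeded. The p38KO value depended on the exclusion of cells that also met the rules of other gates. Cells that met both the monocyte and the C1qa rule were kept out of the monocyte gate, and there were 450 of them in p38KO against 118 in vehicle and 151 in p38i. With every exclusion between gates dropped, the monocyte rule took 840 vehicle and 1067 p38KO cells, and the log2 ratio of the sum in p38KO was 0.96 against 0.047 with the exclusions. The part of the C1qa cells alone in this move was not tested.

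**Figure D3:**
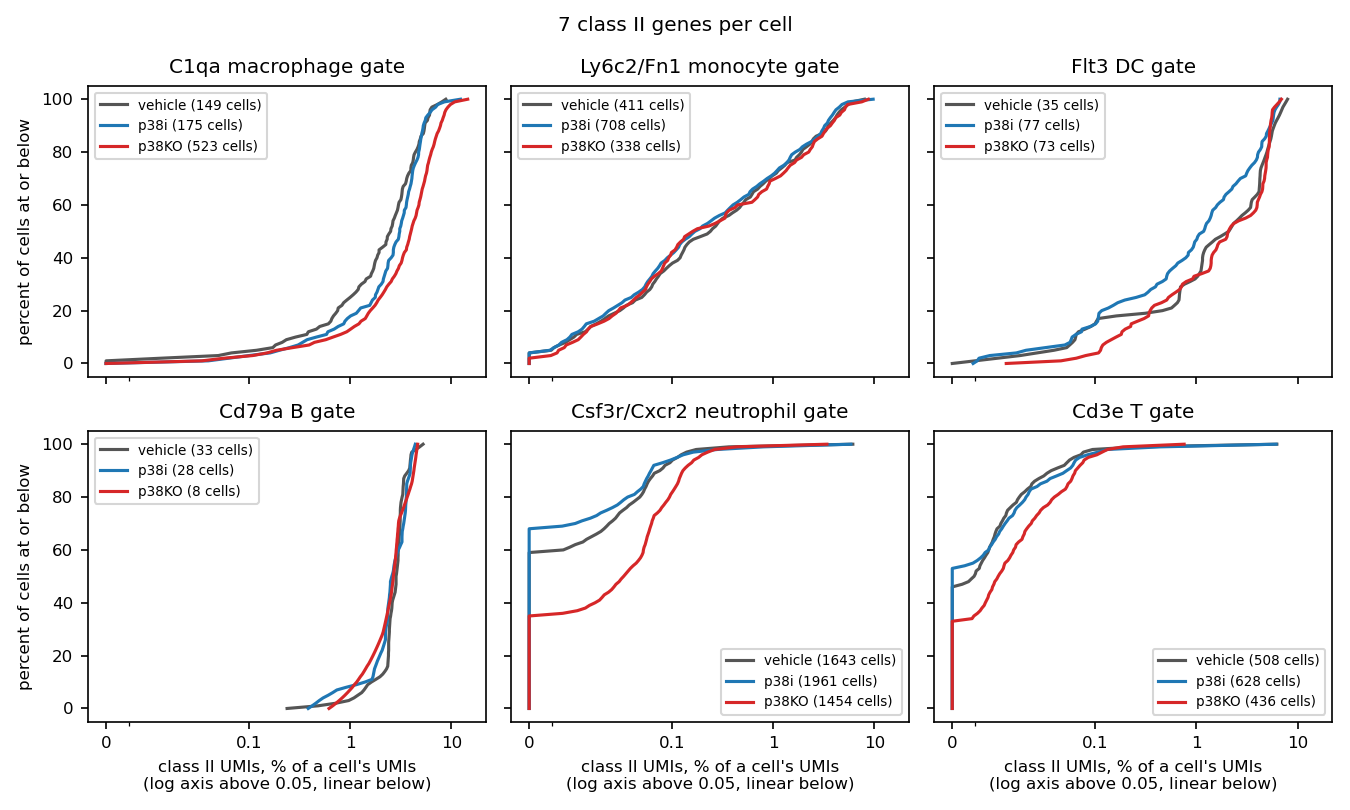
Percent of cells (vertical) whose class II share of UMIs was at or below the value on the horizontal axis, which is logarithmic above 0.05% and linear below, per gate and library. The p38KO macrophage curve lies to the right with a median of 3.99% against 2.51% in vehicle, monocytes spread over the whole axis, and B cells rise steeply near their medians of 2.58% to 2.84%.

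In DC the p38i library was lower for the chains, and the makeup of the gate differed with it. H2-Aa was at 7112, 5361 and 6942 CPM in vehicle, p38i and p38KO, H2-Eb1 at 5154, 3828 and 4937 CPM, and Cd74 at 13336, 10576 and 13183 CPM. The p38i level was the lowest of the libraries for each of these, with log2 ratios of -0.41 (-0.47 to -0.34), -0.43 (-0.51 to -0.35) and -0.33 (-0.38 to -0.29). H2-DMb1 was the one member past the limit, at 358 against 555 CPM (-0.63, -0.88 to -0.39), while H2-DMa was at 729 against 704 CPM (0.050, -0.15 to 0.25). That is 1 of 7 downward and 0 upward, with 11.9% of all genes past the limit downward and 18% upward. H2-DMb1 and its nearly identical copy H2-DMb2 together were at 710.4, 581 and 711 CPM in vehicle, p38i and p38KO DC. The p38i level was again the lowest, but by less than for H2-DMb1 alone. In p38KO, 0 of 7 were past the limit in either direction, the sum was at a log2 ratio of -0.0087, and 19.1% of genes were past it upward and 12.4% downward.

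Split by further markers, cells with Clec9a or Xcr1, which mark the cross-presenting cDC1, numbered 20, 27 and 39 and held 38077, 35785 and 38907 CPM of class II. Their log2 ratio for p38i was -0.090 (-0.13 to -0.053), against -0.36 for the whole gate, and for p38KO it was 0.031 (2.8e-04 to 0.062). Cells with Siglech, a marker of plasmacytoid DC, numbered 9, 20 and 14 and held less, at 12417, 6488 and 10692 CPM, with p38i at a log2 ratio of -0.94 (-1.06 to -0.81) and p38KO at -0.22 (-0.33 to -0.10). The p38i level was therefore lower within this subset as well. Flt3 cells in none of the subsets named here numbered 6, 21 and 14 and went the other way, at 23461, 28074 and 32147 CPM, with ratios of 0.26 (0.18 to 0.34) and 0.45 (0.37 to 0.54). Mature cells, with at least 2 UMIs of Ccr7 and Fscn1 together and counted before the other subsets, numbered 0, 9 and 6, and 0 of 35 such cells in vehicle allows a share of up to 8.57% by the limit of 3 counts, which is no exact interval. They held 11553 CPM in p38i and 19879.7 CPM in p38KO, below the Clec9a or Xcr1 cells of the same library. The Clec9a or Xcr1 cells made up 57.1%, 35.1% and 53.4% of the gate in vehicle, p38i and p38KO. The part of this makeup in the class II level of the gate was not tested. With 39 cells or fewer per subset and library, single cells carry weight in these sums.

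B cells were few, and the interval of the ratio to vehicle included 0 for 4 of 7 members in p38i and 6 of 7 in p38KO. The share of all genes with such an interval was not counted in this gate, and few counts make intervals wide. H2-Aa was at 4794, 5070.2 and 5656 CPM, and the class II share per cell had medians of 2.84%, 2.58% and 2.67%. H2-Eb1 was at 2406 and 3189.7 CPM in vehicle and p38i (log2 ratio 0.41, 0.21 to 0.60), and Cd74 at 13490.1 and 10778 CPM (-0.32, -0.42 to -0.23). One p38i cell held 180 of the 763 H2-Aa counts of that gate. H2-DMb1 stood apart at 386, 59.8 and 135 CPM, from 62, 9 and 4 counts in 19 of 33, 6 of 28 and 3 of 8 cells. The nearly identical gene H2-DMb2 was at 78, 74 and 20 counts. H2-DMb2 therefore held 55.7% (47.1 to 64.1), 89.2% (80.4 to 94.9) and 83.3% (62.6 to 95.3) of the counts of both genes in B cells, but only 9.13%, 12.1% and 8.05% in macrophages. Both genes together were at 873, 552 and 813 CPM in B cells of vehicle, p38i and p38KO. Reads that fit both copies may be split or lost between them, so the H2-DMb1 values of every gate are uncertain to that extent. The vehicle B gate also held more macrophage marker transcripts (2369, 1143 and 406 CPM), in the order of its H2-DMb1 level for vehicle and p38i, and their part was not tested. B-cell markers stood at 12991, 38808 and 19304 CPM in vehicle, p38i and p38KO, and monocyte markers at 2157, 718 and 474 CPM. The makeup of the gate thus differed between libraries, and its part in these ratios was not tested either.

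In neutrophils several members were past the limit in both comparisons, but their counts rested on few barcodes. H2-Aa was at 149, 256 and 221 CPM in vehicle, p38i and p38KO, H2-Ab1 at 113, 220.4 and 181 CPM, and Cd74 at 319, 547 and 420.3 CPM. In p38i 5 of 7 members were past the limit upward (H2-Aa, H2-Ab1, H2-Eb1, Cd74 and Ciita, log2 ratios 0.72 to 0.97), with 18.3% of all genes past it upward and 5.49% downward. In p38KO 3 of 7 were (H2-Aa 0.57, H2-Ab1 0.69 and H2-Eb1 0.56), with 18% upward and 6.11% downward. The median of all genes in this gate was itself at 0.13 and 0.12. The 1% of neutrophil-gate cells with the most class II UMIs held 68.8%, 75.3% and 53.2% of the class II counts of the gate in vehicle, p38i and p38KO.

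Those barcodes had features of a mixture. Neutrophil-gate barcodes with at least 1% class II UMIs numbered 10, 19 and 7, had medians of 7513, 10124 and 8838 UMIs against 2512, 2233 and 2162 in the rest, and held 1457, 3644 and 2328 CPM of macrophage markers against 247, 294 and 488 CPM. They also held 4114, 2921 and 3835 CPM of monocyte markers against 869.6, 892 and 873 CPM in the rest. Whether these barcodes hold more than 1 cell, and of which kinds, was not tested. In the other neutrophils the class II level was 310.0, 340.2 and 544 CPM, and in T cells below 1% it was 165, 238 and 267 CPM. The p38i log2 ratio was 0.13 (0.035 to 0.23) in those neutrophils, under the limit, against 0.52 (0.36 to 0.69) in those T cells. The p38KO log2 ratio was 0.81 (0.71 to 0.91) in those neutrophils and 0.69 (0.52 to 0.86) in those T cells, so the gate used as background differed by more than the neutrophils in p38i and nearly as much in p38KO. Thinned to 1500 UMIs, 28.5%, 22.1% and 50.2% of neutrophils and 20.5%, 21.5% and 34.2% of T cells had a class II transcript, at median depths of 2515, 2248 and 2164 UMIs in neutrophils and 5074, 3966 and 4697 UMIs in T cells (40.7%, 32.0% and 64.4%, and 53.3%, 46.2% and 66.7%, unthinned). At equal depth the neutrophil share exceeded the T-cell share beyond the intervals in vehicle (26.4 to 30.8 against 17.0 to 24.2) and p38KO (47.6 to 52.8 against 29.7 to 38.8) but not in p38i (20.3 to 24.0 against 18.3 to 24.9). Unthinned, the neutrophil share was below the T-cell share in each library. Thinning keeps a larger part of the UMIs of the shallower neutrophils, so these shares cannot tell neutrophil transcripts from background. The order of the libraries by these shares went against their order by CPM, and no order is read from either.

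Over all kept cells of a library the 7 genes held 10223 CPM in vehicle, 9416 in p38i and 19615 in p38KO. The p38KO level was 1.92 times that of vehicle (log2 ratio 0.94, 0.93 to 0.95), a difference of 9392 CPM, of which 9243 CPM lay in the macrophage gate. Macrophages made up 3.90%, 3.65% and 13.6% of kept cells and 13.4%, 12.0% and 32.8% of UMIs. Their share of UMIs was 2.44 times that of vehicle in p38KO, and the class II level within the gate 1.45 times. Macrophages thereby held 35.6%, 37.3% and 65.7% of all class II UMIs, and monocytes 19.5%, 24.9% and 6.68%. Shares of cells in 1 pooled library per group have no replicate check. In the pool, the macrophage share of UMIs and the class II share within macrophages both enter the sum. Macrophages had medians of 15780, 16471 and 12654 UMIs in vehicle, p38i and p38KO. The level within the gate is a share of UMIs and does not give transcripts per cell.

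**Figure D4:**
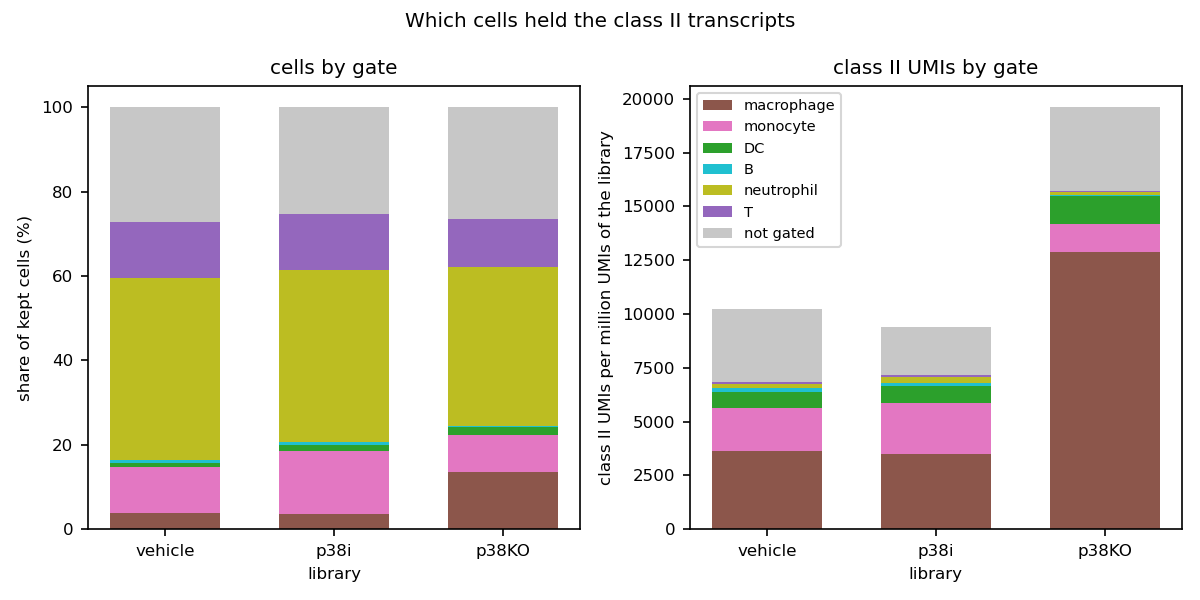
Share of kept cells by gate (left, percent) and class II UMIs per 1000000 UMIs of the library, split by the gate that held them (right), for the 3 libraries. The macrophage part of the right bar is 3643 CPM in vehicle, 3513 in p38i and 12886 in p38KO, while cells outside the gates hold 2255 to 3919.5 CPM.

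H2-Aa, H2-Ab1, H2-Eb1 and Cd74 kept nearly the same proportions across libraries in macrophages and monocytes. In B cells H2-Eb1 and Cd74 did not, at 9.83%, 14.1% and 9.19% and at 55.1%, 47.8% and 55.6% of the class II UMIs. H2-DMa and H2-DMb1 made up less in p38KO macrophages (2.15% and 2.06%) than in vehicle macrophages (2.73% and 2.46%). Of the class II UMIs of macrophages, Cd74 made up 46.5%, 45.6% and 46.8% in vehicle, p38i and p38KO, and H2-Aa 18.1%, 18.5% and 18.3%. In monocytes Cd74 made up 47.6%, 46.2% and 46.8%, but H2-DMa 5.37%, 5.66% and 4.78% against 2.73%, 2.95% and 2.15% in macrophages, and H2-Eb1 10.8%, 11.3% and 10.8% against 15.4%, 15.4% and 15.6%. Monocytes thus had relatively more of the DM α chain and less of the I-E β chain than macrophages in each library. Over single macrophages thinned to 1500 UMIs, the 6 pairs among H2-Aa, H2-Ab1, H2-Eb1 and Cd74 had Spearman correlations of 0.77 to 0.86 in vehicle (149 cells), 0.74 to 0.81 in p38i (175) and 0.82 to 0.85 in p38KO (523). Pairs with an H2-DM gene had medians of 0.49, 0.36 and 0.42 and pairs with Ciita 0.26, 0.20 and 0.20, values that the low counts of these genes bound from above. Cells of a library share its depth and free RNA, and these correlations are descriptions.

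Of 34 other genes of the pathway, 32 had enough counts in macrophages of vehicle and p38KO, and 5 were past the limit upward and 1 downward, with a median log2 ratio of 0.19. With 17.1% and 6.46% of all genes past the limit, these counts were near the background. March8, a ubiquitin ligase of the family that turns over class II, was highest among those with at least 100 counts, at 1.02 (0.47 to 1.61), followed by Cd40 (0.52, 0.23 to 0.82) and Ifngr2, a chain of the interferon-γ receptor (0.52, 0.32 to 0.72), while the others upward, with higher ratios, were H2-Oa (1.65, 0.17 to 3.60) and H2-Ob (1.32, 0.085 to 2.85), the chains of the H2-DO inhibitor of H2-DM, from few counts. The downward gene was Cd80 (-1.23, -1.86 to -0.59). Cd86, a costimulatory ligand, was at -0.36 (-0.56 to -0.16) and the cathepsin gene Ctsl at -0.32 (-0.40 to -0.24), with Nfyb, a subunit gene of the NF-Y factor that binds Y boxes, at -0.28 (-0.68 to 0.14). None of the 9 factors of class II transcription with enough counts passed the limit in p38KO macrophages, their median being 0.081. None of the 7 genes of protein and invariant chain processing did either, with a median of 0.21; among them Ctss, the cathepsin that cleaves the invariant chain in many antigen-presenting cells, was at 0.43 (0.39 to 0.46). In p38i macrophages 2 of 30 were past the limit upward, March8 (0.69) and Rfxank (0.58), and 0 downward. Ifng itself was at 113, 129.5 and 86.0 CPM in T cells of the respective libraries. Against vehicle, p38i T cells were at 0.20 (log2, -0.0087 to 0.41) and p38KO T cells at -0.39 (-0.65 to -0.14). Ifng of cells outside the gates is not given here, and any link of Ifng to macrophage class II was not tested.

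In monocytes 2 of 31 pathway genes were upward in p38i, Irf4 (1.86, 0.47 to 3.59) and Socs1 (0.56, 0.37 to 0.75), and 0 downward, whereas in p38KO 4 were upward and 2 downward. Of all genes, 8.82% were upward and 5.69% downward in p38i, and 15.1% and 4.75% in p38KO, so the counts were again near the background. Cd80 and Cd86, the B7 ligands of CD28, were the 2 downward genes of p38KO, at -1.15 (-1.61 to -0.71) and -0.52 (-0.74 to -0.30), while Socs1, an interferon-induced inhibitor of JAK signalling, was at 0.82 (0.61 to 1.03) and Jak2 at 0.62 (0.42 to 0.82), with Nfyc at 0.98 and Irf4 at 2.19 as the other upward genes. Cd40, the other costimulatory gene of the list, was at 0.37 (0.091 to 0.66), within the limit. In DC 8 of 30 genes were upward and 1 downward in p38i, and 8 of 29 upward and 3 downward in p38KO, where all genes gave 18% and 11.9%, and 19.1% and 12.4%. Cd86 was at 0.58 (-0.030 to 1.23) in p38i DC and 0.61 (0.023 to 1.24) in p38KO DC. H2-DMb2 was at 0.53 (0.13 to 0.94) in p38i DC, opposite to H2-DMb1, and H2-Ob, the downward gene there, at -1.50 (-2.48 to -0.57). Lgmn and Ctsd, lysosomal proteases, were at -1.02 (-1.48 to -0.56) and -1.06 (-1.65 to -0.47) in p38KO DC, with H2-Ob at -0.73.

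The genes whose level followed the members most closely over the 18 pools (6 gates in 3 libraries, Pearson r of log2(CPM + 10) with the mean of the members, 3479 genes compared) were Ly86 (0.982), Ifi30 (0.974), Plekho1 (0.972), Pld4 (0.963), Ctsh (0.957) and Atp13a2 (0.953). Ifi30 encodes the lysosomal thiol reductase that opens disulfide bonds of antigens for class II loading, Ctsh a lysosomal cathepsin, and Ly86 the MD-1 partner of RP105. Ly86 stood at 573, 633 and 702 CPM in macrophages, 231, 197 and 254 CPM in monocytes and 18.2, 21.5 and 19.3 CPM in neutrophils. In DC it was at 376, 283 and 269 CPM, below macrophages in every library. The sum of the members was higher in DC than in macrophages in vehicle and did not share the low of Ly86 in p38KO. Of the members, H2-DMa and H2-DMb1 were lower in vehicle DC (704 and 555 CPM) than in vehicle macrophages (739 and 667 CPM). The pools of one library share its cells and free RNA, and the likeness is mostly between gates.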

How the data were processed

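Live CD45+ cells of 3 libraries, 1 per group, were measured by droplet 3' single-cell RNA-seq. Cell Ranger (6.0.0 in the matrix headers) had been run by the authors against the mouse genome (mm10 in the submitters' processing notes), and they deposited the filtered matrices of UMI counts per gene and barcode. No deposited cell annotation was used. The study's stated cell numbers equal the barcodes of the matrices, and its stated filter (1500 UMIs, 300 genes, 20% mitochondrial counts) was applied. Gates excluded markers of other lineages, and no doublet caller was run. Raw counts were summed per gate and library (Python 3.11.15, numpy 2.4.6, scipy 1.17.1) and scaled to CPM with exact Poisson intervals. Ratios to vehicle had exact conditional binomial intervals, and shares Clopper-Pearson intervals. A gene was called past a log2 ratio of 0.5 with at least 20 counts over both libraries. With 1 library per group no test was run, and depth limits only counting error. Intervals and ratios were tested on simulated independent Poisson counts, the model that the intervals assume. Spread between cells was not simulated, so this checks the calculation only. The members and all lists were chosen with earlier results of these data known. Named were all 7 members, the 3 pathway genes of at least 100 counts with the largest ratio in each direction per gate and comparison, Ifng, and the 6 genes most like the members over 18 pools. Pathway genes outside this rule (Ctss, and those named where a count was 5 or fewer) were named after their values were seen. Alternatives changed the cell filter, the gates, the scaling, the depth and the cells included. H2-Ea was not analysed here.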

Additional observations from a re-analysis of the deposited data

Results flagged for a closer look

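Under p38i the sum of the 7 class II genes had opposite signs against vehicle in different gates. It was at a log2 ratio of 0.78 in neutrophils but -0.17 in monocytes and -0.36 in DC, gaps of 0.95 and 1.14 on the log2 scale. This was not tested, since each group is 1 library, and the neutrophil value was -0.24 when cells meeting the rules of several gates were left in.

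Cells outside all gates, which enter no comparison within a gate but are part of the sums over all kept cells, held 12765 CPM of class II in vehicle, 9538 in p38i and 14806 in p38KO, well above the T-cell background. Those with at least 1% class II UMIs, 114, 147 and 152 cells, held 95.8%, 93.6% and 95.9% of these UMIs and had 9049.8, 6239 and 20244 CPM of macrophage markers. Barcodes that failed the cell filter held 2001, 1219 and 2669.6 CPM of class II.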

How the results depend on the processing

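All values are log2 ratios to vehicle of the sum of the 7 genes, given for macrophages, monocytes, DC and neutrophils. As reported they were 0.11, -0.17, -0.36 and 0.78 in p38i and 0.53, 0.047, -0.0087 and 0.49 in p38KO. Of 9 alternatives, 9 kept the sign of the p38KO macrophage value and 6 kept it past 0.5; the cause of each move was not tested. Stricter gates gave 0.12, -0.14, -0.17 and 1.08 in p38i and 0.57, -0.030, 0.24 and 1.07 in p38KO. Without exclusion between gates the values were 0.074, -0.0029, -0.32 and -0.24 in p38i, and 0.43 in macrophages, 0.96 in monocytes and 1.65 in neutrophils in p38KO. In p38i neutrophils this setting turned H2-Aa to -0.21, H2-Ab1 to -0.17, H2-Eb1 to -0.29 and Cd74 to -0.26. Median-ratio scaling gave 0.13, -0.21, -0.39 and 0.65 in p38i and 0.47, -0.035, -0.054 and 0.37 in p38KO. Thinning each cell to 1500 UMIs gave 0.18, -0.13, -0.47 and 0.24 in p38i and 0.59, 0.11, 0.033 and 0.72 in p38KO, with H2-Eb1 of p38i neutrophils at -0.021. Without cycling cells p38i was at -0.0041 in macrophages and 1.13 in neutrophils, and p38KO at 0.40 in macrophages, -0.10 in DC and 0.84 in neutrophils. Without the deepest 5% of cells p38i was at -0.027 in monocytes, -0.53 in DC and 0.45 in neutrophils, and p38KO at 0.56 in macrophages, 0.22 in monocytes and 1.12 in neutrophils. With the T-cell level taken off, p38i neutrophils were at 1.90, and p38KO at 0.55 in macrophages, 0.088 in monocytes and 2.07 in neutrophils. Much of that T-cell level lay in barcodes with at least 1% class II UMIs. They numbered 3 in vehicle (70.7% of the class II UMIs of the T gate), 4 in p38i (59.8%) and 0 in p38KO. Among cells below 1%, the p38i ratio was 0.13 in neutrophils and 0.52 in T cells, so no rise over background is read from this setting. Without the 1% of cells with the most class II UMIs, an alternative chosen after seeing the data, p38i was at -0.19 in monocytes and 0.45 in neutrophils (H2-Eb1 at -0.20), and p38KO at 0.55 in macrophages, 0.044 in DC and 1.07 in neutrophils. With all barcodes p38i neutrophils were at 0.68. Values not given here stayed inside their counting interval. At a limit of 1 on the log2 scale, 0 members were past it in the 4 gates under either comparison. Of all genes, 0.953% to 5.93% were past it per gate, comparison and direction, so 0 of 7 says little. A minimum of 100 counts kept the 4 macrophage calls of p38KO, where 11.1% of all genes were past the limit upward. Over single members, 400 of 448 values kept their sign. No paired analysis was possible because each group held 1 library, and for the same reason no library could be left out. Low counts limit Ciita, the B-cell values, the DC subsets and the neutrophil and T-cell values of single members.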

Other observations

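Macrophages with an Mki67 or Top2a transcript, which mark cycling cells, held less class II than the others in each library. The sum of the 7 genes was 20429, 22476 and 34943 CPM in the 43, 42 and 177 such cells of vehicle, p38i and p38KO, and 32585, 32493 and 43019.9 CPM in the 106, 133 and 346 others. The cycling cells made up 28.9%, 24.0% and 33.8% of the gate, and the p38KO level was the highest in both kinds of cells. Cycling cells were also deeper on average in each library, with 1253601 UMIs in the 43 of vehicle against 1538942 in the 106 others. A single transcript sufficed for the mark, and the part of depth in this split was not tested.

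H2-DMb2 made up 21.8%, 38.4% and 21.2% of the H2-DMb1 and H2-DMb2 counts of DC in vehicle, p38i and p38KO, between the shares in macrophages and B cells. Of the DC gate, p38i thus had the lowest H2-DMb1 level and the highest H2-DMb2 share.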
